A study of Mus musculus with 6 samples.

Results

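The genes examined were the receptors and killing machinery of natural killer (NK) cells in mouse lung. They were all rows of the mRNA table with a symbol of the killer cell lectin-like receptor families Klra to Klrk, together with Ncr1, Prf1, Gzma, Gzmb, Gzmk, Gzmm, Nkg7, Eomes, Tbx21 and Il2rb. This gave 36 genes of 22564 in the table. The libraries came from the lungs of male C57BL/6 mice of 8 to 10 weeks, and no genotype other than this strain was given. In the PBLI (primary blast lung injury) group, the chest of anesthetized mice received a blast wave of 0.5 bar and the lung was taken 6 h later. Controls had anesthesia alone. Each group held 6 mice, and the right upper lobes of 2 mice were pooled for each library, which left 3 libraries per group (controls 1, 2 and 3, and PBLI G3, G4 and G5). A pool hides the difference between its mice, and the p-values measure the spread between pools.

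NK cells are innate lymphocytes that kill infected, transformed or stressed cells without prior priming, and they circulate through the vessels of the lung. Their activity is set by the balance between inhibitory receptors that read MHC class I on healthy cells, which in the mouse are the Ly49 receptors and the CD94-NKG2 pairs, and activating receptors such as NKp46 and NKG2D. On contact with a target they release granules that hold perforin, a pore-forming protein, and granzymes, the proteases that enter through the pore. Most of these genes are also used by some T cells and other innate lymphocytes, so they mark NK cells only as a group.

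Values are FPKM, the fragments of a gene divided by its length in kilobases and by the depth of the library. They were tested with limma as log2(FPKM + 0.5), which understates the change of genes near or below 0.5 FPKM, and a gene was called where the p adjusted by Benjamini and Hochberg's method over all tested mRNAs was under 0.05. Absolute depth is unknown, but the steps between the lowest FPKM values gave the depth relative to control 1. Controls 2 and 3 stood at 0.995 and 1.15. The PBLI libraries G3, G4 and G5 were deeper, at 1.32, 1.24 and 1.6. PBLI G5 stood apart from G3 and G4: the summed FPKM of 5 pan-leukocyte genes was 107.3 in G5, against 249 and 254 in the other PBLI libraries and 197 to 229 in the controls, while 10 neutrophil markers summed to 386 in G5 and to 2274 and 1959 in G3 and G4. The 10 lung markers and the NK genes Ncr1, Klrb1c and Prf1 were above 0 in all 6 libraries. From 16010 to 16257 genes were above 0 in each library, so this is no test of the tissue label.

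Promoters are shown for Ncr1, Gzma and Prf1, a receptor and effector genes that share a motif, and for the Ly49 genes Klra3 and Klra9, which resemble one another and lack it. The windows were taken from RefSeq (GRCm38.p6) and run from 250 bases before to 50 bases after a transcript start given in its promoter table, on the strand of the gene. That start lies at the outer boundary of the gene for Ncr1, Gzma and Klra3, 85 bases inside it for Prf1 and 1262 bases inside it for Klra9, and motif distances are counted from it. Capitals mark the RUNX motif TGTGGT, or ACCACA where it lies on the opposite strand. The window of Ncr1 is chr7:4337465-4337764 on the plus strand, that of Gzma is chr13:113100932-113101231 on the minus strand, that of Prf1 is chr10:61297586-61297885 on the plus strand, that of Klra3 is chr6:130337577-130337876 on the minus strand and that of Klra9 is chr6:130193063-130193362 on the minus strand.
Ncr1: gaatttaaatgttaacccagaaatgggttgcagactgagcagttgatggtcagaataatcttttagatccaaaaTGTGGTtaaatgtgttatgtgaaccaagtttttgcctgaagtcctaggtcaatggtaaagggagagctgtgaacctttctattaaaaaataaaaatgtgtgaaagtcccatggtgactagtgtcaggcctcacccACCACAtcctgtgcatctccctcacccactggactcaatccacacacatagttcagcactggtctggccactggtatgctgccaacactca
Gzma: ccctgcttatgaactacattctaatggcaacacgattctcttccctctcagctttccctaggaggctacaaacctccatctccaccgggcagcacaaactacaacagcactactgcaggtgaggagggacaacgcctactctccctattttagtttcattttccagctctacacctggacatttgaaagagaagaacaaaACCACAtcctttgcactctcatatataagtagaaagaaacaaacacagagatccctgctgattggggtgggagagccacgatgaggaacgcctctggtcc
Prf1: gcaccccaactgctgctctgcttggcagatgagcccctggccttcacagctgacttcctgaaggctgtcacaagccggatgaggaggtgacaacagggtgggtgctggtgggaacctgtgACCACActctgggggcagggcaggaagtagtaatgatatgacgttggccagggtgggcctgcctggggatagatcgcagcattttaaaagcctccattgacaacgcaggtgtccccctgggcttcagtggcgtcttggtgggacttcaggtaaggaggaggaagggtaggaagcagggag
Klra3: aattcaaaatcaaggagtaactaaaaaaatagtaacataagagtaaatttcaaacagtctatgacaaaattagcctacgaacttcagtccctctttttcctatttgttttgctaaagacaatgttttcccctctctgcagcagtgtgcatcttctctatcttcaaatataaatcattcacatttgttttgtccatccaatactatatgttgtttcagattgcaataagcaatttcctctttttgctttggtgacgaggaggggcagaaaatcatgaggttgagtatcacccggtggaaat
Klra9: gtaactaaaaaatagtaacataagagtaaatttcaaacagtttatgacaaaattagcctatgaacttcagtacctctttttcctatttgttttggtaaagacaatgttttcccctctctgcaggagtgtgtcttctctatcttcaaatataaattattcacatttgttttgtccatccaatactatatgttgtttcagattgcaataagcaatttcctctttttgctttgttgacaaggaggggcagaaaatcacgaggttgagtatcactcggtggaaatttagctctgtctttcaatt

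The RUNX motif, which is bound by RUNX3 and related factors of lymphocytes, was present in 14 of the 32 members whose promoter was given, or 43.8%. In all 27025 promoters of the same length the share was 16.9%. Ncr1 had 2 matches, 176 and 41 bases before the start, Gzma had 1 at 50 bases and Prf1 had 1 at 130 bases. Of the 11 Ly49 promoters only that of Klra1 held the motif, whereas 13 of the other 21 did (Gzma, Gzmb, Gzmm, Klrb1a, Klrb1c, Klrc1, Klrc2, Klrc3, Klre1, Klrk1, Ncr1, Nkg7 and Prf1). The T-box motif GGTGTGA was found on either strand in 3 of the 32 (Gzmk, Klra1 and Nkg7), against 3.96% of all promoters. The STAT motif TTCNNNGAA, which reads the same on both strands, was found in 7 of the 32 (Gzmb, Gzmm, Klra10, Klra2, Klra7, Klrb1f and Nkg7), against 8.47% of all promoters. The RUNX and T-box motifs can overlap, since TGTGGT ends with the letters GGT that open GGTGTGA. A match is a description of the sequence only. In 18 of the 32 windows the start used lies inside the boundary of the gene. It lies 18848 bases inside for Klre1 and 3879 for Klrc1, which held the RUNX motif, and 1719 for Klra10 and 1635 for Klra7, which did not. The counts thus describe windows at the listed starts, which are not always the outermost, and this also limits the contrast between Ly49 and other genes. The promoters of Klra3 and Klra9 were identical in 85% of aligned positions and those of Klra4 and Klra8 in 86%. These were the most alike of the 55 pairs of Ly49 promoters, whose median was 51.7%.

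In PBLI lungs 3 NK genes were called lower and none was called higher, and most of the others had a lower mean than in the controls. The called genes were Klra3, an inhibitory Ly49 receptor, Klrd1 (CD94), the partner chain of the NKG2 receptors, and Ncr1 (NKp46), an activating receptor. Of the 36 genes, 31 passed the filter of 0.5 FPKM in at least 1 library. The 3 calls stand against a background of 0.928% of the 14760 tested mRNAs called lower and 1.15% called higher (2.08% in either direction). No member was called higher, and none had an unadjusted p under 0.05 in that direction (9.15% of all tested mRNAs), while 19 had one in the lower direction (10% of all tested mRNAs). The log2 difference was below 0 in 26 of the 31, against 52.9% of all tested mRNAs, and its median was -0.72, against -0.02 for all. Every PBLI library lay below every control library in 16 of the 31, against 14.4% of all tested mRNAs, and in none did every PBLI library lie above (13.3%). At a fold of at least 2 with an unadjusted p of at most 0.05, the thresholds of the study, 7 were lower (background 1.17%). The fold was taken on the log2(FPKM + 0.5) scale, and this count was 15 with 0.1 and 3 with 1 in place of 0.5. The p here was from limma, while the study tested mRNAs with cuffdiff, so the count is not that of the study.

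Of the tested members, 5 passed the filter through control libraries alone (Klra3, Klrb1a, Klre1, Klri1 and Gzmm) and 1 through PBLI libraries alone (Klrc3), so a count over tested members is not a count over all members. Klra3 was also called with no filter (limma adjusted p = 0.0201). Over all 36 genes, the mean was lower in PBLI in 29, and the groups did not overlap in 17, all lower. Without the filter the groups were apart in the lower direction in 13.2% and in the higher direction in 11.7% of 17452 mRNAs, and 53.2% had a difference below 0.

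The calls depended on single libraries, over all mRNAs as well as among the members. Without PBLI G5, 4 members were called lower, with Gzma added. Without control 2, without control 3 or without PBLI G3 none was called, without control 1 only Klra3 was called, and without PBLI G4 Klra3 and Klrd1 were called. Over all mRNAs, 137 were called lower in the full fit. This count was 12, 0 and 42 without controls 1, 2 and 3, and 3, 46 and 188 without PBLI G3, G4 and G5. The number of tested members with a difference below 0 was 25 or 26 in each of these fits, and the median of the members lay between -0.89 (without control 1 or PBLI G4) and -0.53 (without PBLI G5). In bulk tissue, fewer NK cells and less RNA per NK cell cannot be told apart.

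**Figure D1:**
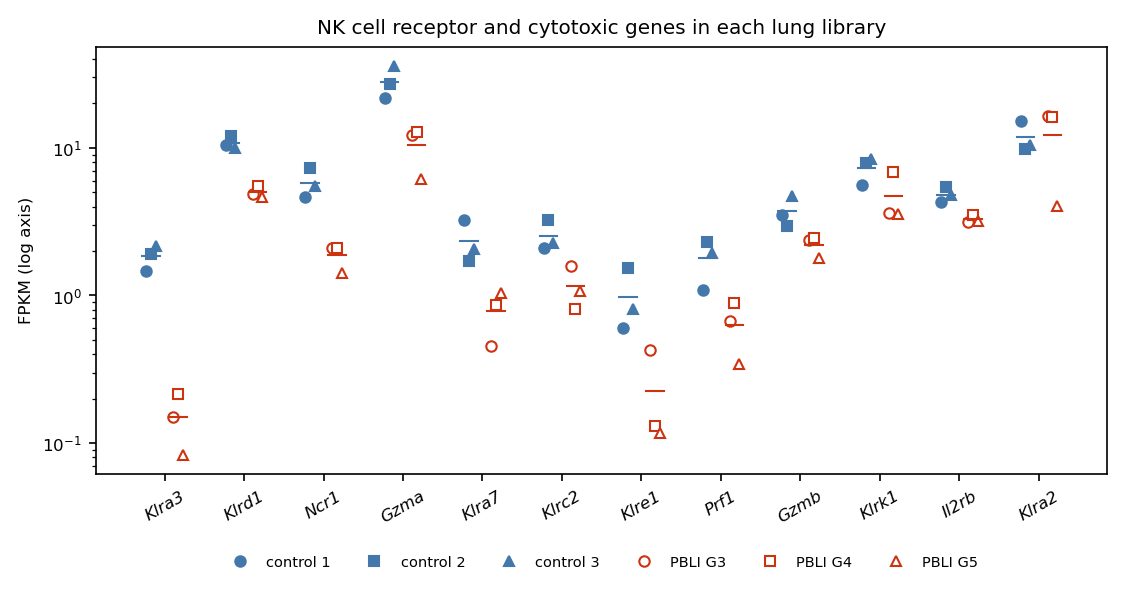
FPKM (log axis) of 12 genes in each of the 6 libraries, controls in filled blue and PBLI in open red symbols, with horizontal lines at the group means. All genes shown except Klrk1 and Klra2 have no overlap between the groups, which held for 16 of the 31 tested members. PBLI G5 (open triangle) is the lowest of the PBLI libraries for most genes shown.

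The levels were read per library in the 16 members with a mean of 1 FPKM or more over all 6 libraries. Taken as a percentage of each gene's control mean, the median member stood at 81.5%, 109.7% and 107.4% in controls 1, 2 and 3. It stood at 49.5%, 60.4% and 42.3% in PBLI G3, G4 and G5, so the PBLI medians were below that of the lowest control. The median of the 13076 mRNAs under the same limit was 97.1% to 100.2% in the 6 libraries. Of the 16 members, 14 had a lower mean in PBLI, against 51.3% of all mRNAs under this limit, and PBLI G5 was below every control in 15, against 37.8%. Among the 31 tested members, G5 was the lowest PBLI library for 23, G3 for 6 and G4 for 2.

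The Ly49 receptors (Klra genes) are MHC class I receptors of mouse NK cells, some inhibitory and some activating, and 1 of 8 tested was called lower. Klra3 (ENSMUSG00000067591, minus strand of chr6:130323289-130337626), which encodes the inhibitory receptor Ly49C, was measured at 1.47, 1.9 and 2.17 FPKM in the controls. In PBLI it was measured at 0.151, 0.216 and 0.0836 FPKM in G3, G4 and G5. Every PBLI library was far below every control, and the mean was 12.3-fold lower (1.85 ± 0.353 against 0.15 ± 0.0661 FPKM, SD, n = 3). On the log2(FPKM + 0.5) scale the difference was -1.85 (SE 0.23, limma adjusted p = 0.0152). All PBLI values were below the added 0.5, so this scale compresses the change.

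The remaining Ly49 genes fell on both sides of 0, and none passed the test. Klra7 (inhibitory Ly49G) was at 3.27, 1.71 and 2.07 FPKM in the controls and at 0.452, 0.866 and 1.04 in PBLI, a log2 difference of -1.14 (SE 0.29, limma adjusted p = 0.0987). The groups did not overlap. Klra8, the activating receptor Ly49H that recognizes a protein of mouse cytomegalovirus, was at 2.00, 2.01 and 3.47 FPKM in the controls and at 1.53, 1.37 and 0.596 in PBLI, again without overlap (log2 difference -0.86). Klra9 (Ly49I) and Klra4 (activating Ly49D) had differences of -0.90 and -0.78 with overlapping groups. Klra17 (Ly49Q, known from plasmacytoid dendritic cells) and Klra1 (Ly49A) had differences of 0.27 and 0.35, and their intervals of -0.84 to 1.38 and -0.65 to 1.35 spanned 0.

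Klra2 (Ly49B), known in the mouse from myeloid cells rather than NK cells, was the second most abundant member. It was at 15.2, 9.80 and 10.5 FPKM in the controls and at 16.5, 16.2 and 4.03 FPKM in PBLI G3, G4 and G5. PBLI G3 and G4 were thus above all controls and G5 was below them all, which also held for the pan-leukocyte sum (197 to 229 in the controls, 249, 254 and 107.3 in PBLI). The part of leukocyte content in this pattern was not tested. The log2 difference was -0.16 (SE 0.49, limma adjusted p = 0.889), it was 0.48 without PBLI G5 and 0.03 without control 1, and without both it was 0.66 (limma adjusted p = 0.0378), the only member then called higher.

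The other Ly49 genes were barely detected. Klra10 was at 0.168, 0.169 and 0.292 FPKM in the controls and at 0 in all PBLI libraries and was not tested. Klra5 and Klra6 did not reach 0.5 FPKM in any library. The table gives Klra1, Klra3, Klra4, Klra6, Klra7, Klra8, Klra9 and Klra10 the same locus, so the assignment of reads between these 8 related genes is uncertain. Of the 100-base stretches of the longest annotated transcript, 1.93% of those of Klra3 occurred in another gene (Klra10), as did 14.4% of those of Klra8 (mostly in Klra14-ps), 4.41% of those of Klra9 (mostly in Klra11-ps) and 2.29% of those of Klra7 (in Klra13-ps). Klra1, Klra4 and Klra6 shared none. The sum over all 11 Klra genes was 22.95 to 25.2 FPKM in the controls and 22.3, 23.8 and 7.46 FPKM in PBLI G3, G4 and G5, with Klra2 the largest part of it.

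**Figure D2:**
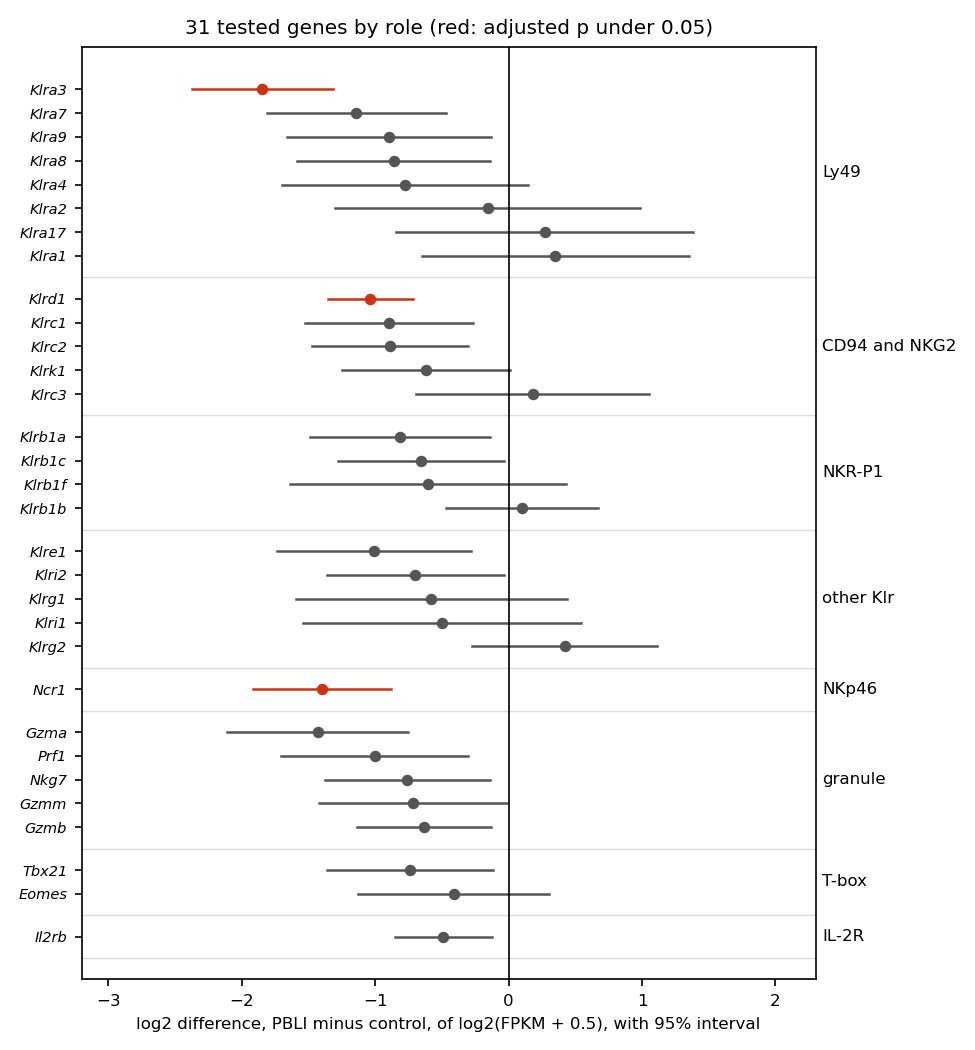
Difference between PBLI and control on the log2(FPKM + 0.5) scale for the 31 tested members, ordered by role, with 95% intervals from limma. The called genes Klra3, Klrd1 and Ncr1 are in red, and 26 of the 31 points lie left of 0.

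CD94 pairs with NKG2A (Klrc1, inhibitory) or with NKG2C and NKG2E (Klrc2 and Klrc3, activating) to read the non-classical MHC molecule Qa-1, and NKG2D (Klrk1) binds ligands of stressed cells. Klrd1, the gene of CD94 (ENSMUSG00000030165, plus strand of chr6:129588092-129598775), was at 10.5, 12.0 and 10.02 FPKM in the controls and at 4.88, 5.56 and 4.64 FPKM in PBLI. The libraries within each group were close and the groups did not overlap. The mean was 2.16-fold lower (10.8 ± 1.06 against 5.02 ± 0.477 FPKM, SD, n = 3), with a log2 difference of -1.04 (SE 0.14, limma adjusted p = 0.0171). This was the smallest spread among the 3 called genes, and Klrd1 shared no 100-base stretch with another gene.

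Klrc1 was at 2.43, 2.13 and 3.37 FPKM in the controls and at 1.30, 1.60 and 0.713 FPKM in PBLI. Klrc2 was at 2.10, 3.25 and 2.27 FPKM in the controls and at 1.58, 0.814 and 1.07 FPKM in PBLI. Neither gene's groups overlapped, but their log2 differences of -0.90 (limma adjusted p = 0.142) and -0.89 (limma adjusted p = 0.127) did not pass the test. Klrk1 was at 5.57, 7.88 and 8.37 FPKM in the controls and at 3.62, 6.85 and 3.58 FPKM in PBLI. Here PBLI G4 lay among the controls, and the difference of -0.62 had an interval of -1.25 to 0.01 (limma adjusted p = 0.264). Klrc3 was at 0, 0.414 and 0.00018 FPKM in the controls and at 0.160, 0.509 and 0 FPKM in PBLI, a difference of 0.18 with mixed groups. Of the 100-base stretches of Klrc1, 15.9% also occurred in Klrc2, and 20.9% of those of Klrc3 occurred in another gene, so the split between these genes is uncertain.

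The NKR-P1 receptors (Klrb1 genes) include some that bind C-type lectins of the Clec2 family, and of the 4 Klrb1 genes tested none was called. Klrb1c, the gene of NK1.1, by which NK cells of C57BL/6 mice are commonly identified, was at 1.85, 3.84 and 3.58 FPKM in the controls and at 1.77, 1.87 and 1.49 FPKM in PBLI. Control 1 lay between PBLI G3 and G4, and the difference of -0.66 (SE 0.27) had a limma adjusted p of 0.239. The inhibitory receptor gene Klrb1b was at 2.05, 3.69 and 3.12 FPKM in the controls and at 3.60, 2.41 and 3.48 FPKM in PBLI. Its groups were mixed, with a difference of 0.10 (interval -0.47 to 0.67), and 25.4% of its 100-base stretches occurred in another annotated gene. Klrb1a had a difference of -0.82 with groups apart and Klrb1f one of -0.60 with overlap. Klrb1 was listed at 0 in all controls and at 0.186, 0.198 and 0 FPKM in PBLI, and was not tested.

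Among the other lectin receptors, Klre1, whose product pairs with those of Klri1 and Klri2, was at 0.607, 1.53 and 0.804 FPKM in the controls and at 0.427, 0.131 and 0.117 FPKM in PBLI. The groups were apart, with a difference of -1.01 (SE 0.31, limma adjusted p = 0.151). Klri2 had a difference of -0.70 with groups apart, and Klri1 one of -0.50 with overlap. Klrg1, a receptor for cadherins, had a difference of -0.58 with overlap. Klrg2 was at 0.195, 0.882 and 0.676 FPKM in the controls and at 0.815, 0.867 and 1.00 FPKM in PBLI. It had the highest difference of all members, 0.42, with an interval of -0.27 to 1.11.

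Ncr1 (ENSMUSG00000062524, plus strand of chr7:4337715-4345184) encodes NKp46, an activating receptor found on NK cells and some other innate lymphocytes. It was at 4.62, 7.32 and 5.48 FPKM in the controls and at 2.10, 2.10 and 1.42 FPKM in PBLI. All PBLI libraries were below all controls, and the mean was 3.10-fold lower (5.81 ± 1.38 against 1.88 ± 0.392 FPKM, SD, n = 3). The log2 difference was -1.40 (SE 0.22, limma adjusted p = 0.0290), and with no filter the limma adjusted p was 0.0596, no longer under the threshold. Ncr1 lies outside the receptor cluster of chromosome 6 and shared no 100-base stretch with another gene.

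All 5 tested granule genes had a lower mean in PBLI, and none was called. They all had an unadjusted p under 0.05 in the lower direction (10% of all tested mRNAs) and in 4 the groups were apart (14.4%). Gzmm is among the 5 and passed the filter through the controls alone. Gzma, a granzyme and the most abundant member, was at 21.8, 26.9 and 35.6 FPKM in the controls and at 12.3, 12.7 and 6.14 FPKM in PBLI. Every PBLI library was below every control, with a mean 2.71-fold lower (28.1 ± 6.96 against 10.4 ± 3.68 FPKM, SD, n = 3). The difference of -1.43 (SE 0.29) missed the threshold in the full fit (limma adjusted p = 0.0586). It passed without PBLI G5, where it was -1.11 (limma adjusted p = 0.0363).

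Prf1, the gene of perforin, was at 1.1, 2.32 and 1.95 FPKM in the controls and at 0.667, 0.887 and 0.343 FPKM in PBLI. The groups were apart, with a difference of -1.0 (SE 0.30, limma adjusted p = 0.142). Gzmb, the granzyme that cleaves caspases in the target, was at 3.53, 2.96 and 4.74 FPKM in the controls and at 2.37, 2.46 and 1.79 FPKM in PBLI. Its groups were apart as well, but the difference was smaller, -0.64 (SE 0.22, limma adjusted p = 0.178). Nkg7, a granule membrane protein needed for degranulation, was at 4.46, 4.63 and 6.29 FPKM in the controls and at 2.13, 4.28 and 2.34 FPKM in PBLI. PBLI G4 came close to the lowest control, and the difference was -0.76 (SE 0.26, limma adjusted p = 0.186). Gzmk, a granzyme of memory T cells, did not reach the filter, with 0.395 FPKM or less in every library.

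Gzmm showed how the split between transcripts can set a value. Its protein-coding row was at 0.494, 0.260 and 0.673 FPKM in the controls and at 2.69e-05, 2.98e-05 and 0.297 FPKM in PBLI, a difference of -0.72 (limma adjusted p = 0.256). An overlapping noncoding transcript of the same gene held 0.852 and 0.725 FPKM in PBLI G3 and G4 and 0.375 FPKM in control 2, and was near 0 in the rest. The 2 rows together gave 0.494, 0.635 and 0.673 FPKM in the controls and 0.852, 0.725 and 0.297 FPKM in PBLI, and the difference of the sum was -0.0012 (limma adjusted p = 0.999). Klre1 had such a transcript too, and its sum was 1.23, 1.76 and 2.02 FPKM in the controls and 0.427, 1.18 and 0.292 FPKM in PBLI, with a difference of -1.0.

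Eomes and T-bet (Tbx21) are the T-box transcription factors that drive NK cell maturation, and the receptor chain Il2rb takes up the signal of interleukin-15 on which NK cells depend. Tbx21 was at 0.754, 0.980 and 1.11 FPKM in the controls and at 0.471, 0.537 and 0.138 FPKM in PBLI, without overlap (difference -0.74, SE 0.27, limma adjusted p = 0.199). Eomes was at 0.658, 1.01 and 0.618 FPKM in the controls and at 0.608, 0.682 and 0.131 FPKM in PBLI, where G4 lay among the controls, G3 just below the lowest of them and G5 well below (difference -0.41, SE 0.31, limma adjusted p = 0.493). Il2rb was at 4.27, 5.39 and 4.79 FPKM in the controls and at 3.15, 3.51 and 3.18 FPKM in PBLI. Its groups were apart with a small spread, a difference of -0.49 (SE 0.16, limma adjusted p = 0.163) and an interval of -0.85 to -0.12. G5 was not the lowest PBLI library for this gene.

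Of the 36 members, 26 lie on chromosome 6, and 20 tested ones lie together in the NK gene complex, which spans chr6:128609227-131247716. Of these 20, 16 had a difference below 0, against 52.9% of all tested mRNAs. The 10 members on other chromosomes are the granule genes, Ncr1, the T-box genes and Il2rb. The 9 of them that were tested all had a difference below 0. Gzmm, among these 9, passed the filter through the controls alone, and its difference was -0.0012 with its noncoding transcript added. Gzmk was not among them, and with no filter its difference was 0.0063.

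**Figure D3:**
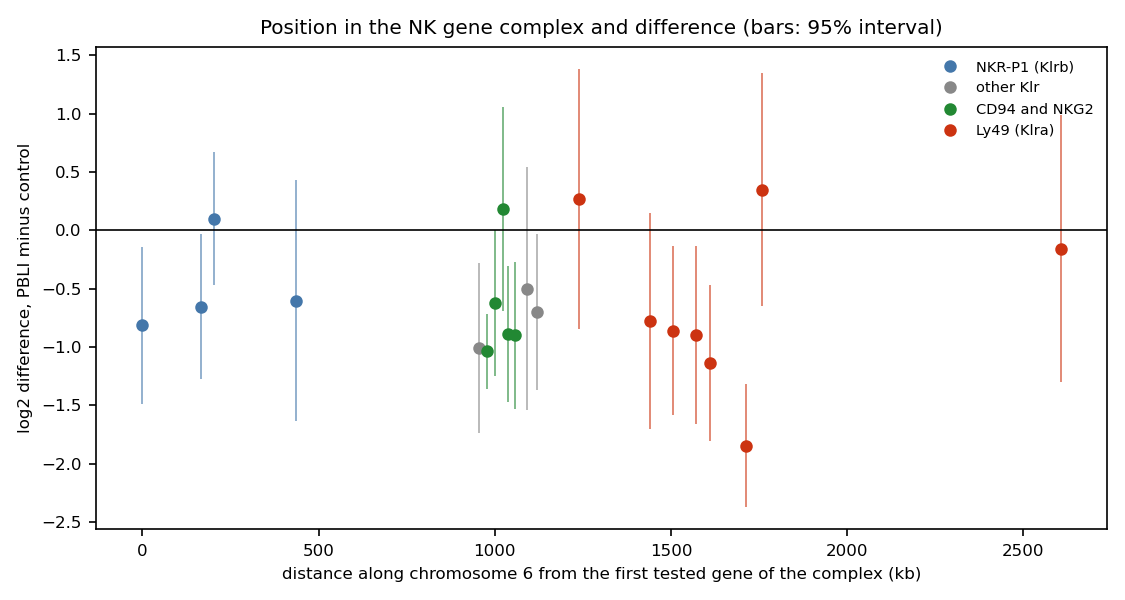
Log2 difference (PBLI minus control, with 95% interval) of the 20 tested genes of the NK gene complex against their distance in kb from the first of them along chromosome 6, coloured by family. Genes with differences below 0 occur along the whole complex, and Klra3 lies next to Klra1, which had a difference of 0.35.

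Other genes of NK cell function were read from lists that the members do not share. Over all tested mRNAs, 2.08% were called in either direction. Of 11 tested activating receptors and adaptors none was called and the median was -0.27. The adaptor genes Tyrobp and Fcer1g, also expressed by myeloid cells, were at 53.5 to 54.1 and 24.2 to 35.2 FPKM in the controls. In PBLI G3, G4 and G5, Tyrobp was at 100.2, 99.9 and 41.6 FPKM, so G5 was again apart. Of 8 inhibitory receptors outside the Klr families none was called (median -0.18), of 11 granule release and death genes none (median 0.01), and of 6 cytokine and chemokine genes none (median -0.12). Lamp1, a lysosome membrane protein that marks degranulation, was at 233 to 242 FPKM in the controls and at 226 to 246 FPKM in PBLI.

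Among the lists of NK cell function, that of cytokine signals held the only called gene. Il2rg, the chain shared by the receptors for interleukin-2 and interleukin-15, was at 34.5, 31.7 and 30.6 FPKM in the controls and at 22.9, 23.4 and 20.4 FPKM in PBLI. The groups were clearly apart, with a difference of -0.53 (SE 0.098, limma adjusted p = 0.0436), and it was 1 of 16 tested genes of this list (median -0.23). Over all tested mRNAs, 0.928% were called lower. Without control 2 no mRNA was called lower, so the call of Il2rg was lost in that fit. Of 18 homing and adhesion receptors none was called (median -0.35), and the same held for 14 transcription factors of NK cell maturation (median -0.32) and for 11 ligands of Klr receptors (median -0.27). In this order of lists, the groups were apart in the lower direction in 5, 4 and 5 genes (14.4% of all tested mRNAs). They were apart in the higher direction in 1, 2 and 2 (13.3%). At the study's thresholds as applied above, 3, 2 and 1 genes were lower (1.17%) and none was higher. Runx3, chosen after its values were seen because of the motif above, was at 3.20, 4.34 and 2.98 FPKM in the controls and at 1.79, 1.61 and 0.648 FPKM in PBLI. Its groups were apart, with a difference of -1.16 (SE 0.30, limma adjusted p = 0.105). This was the lowest difference of the 14 transcription factors, of which 4 had a difference above 0. A link between Runx3 and the motif was not tested. The ligand genes B2m and Clec2d were at 749 to 1058 and 211 to 312 FPKM over the 6 libraries.

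Markers of other leukocytes were read beside the NK genes, and 1 of them was called. Summed over the 36 members, FPKM was 96.2, 115.8 and 121.3 in the controls and 66.6, 75.3 and 40.0 in PBLI. All 14 T cell markers had a difference below 0 (median -0.41, none called) and 5 had the PBLI libraries all below the controls, and their sum was 37.8 to 45.4 in the controls and 21.4 to 36.1 in PBLI. All 10 table rows of the 9 B cell markers, of which Cr2 has 2, had a difference below 0 (median -0.97, none called). In 8 of these 10 the groups were apart in the lower direction and 4 of 10 were past the study's thresholds as applied above. Among the 31 tested NK genes these counts were 16 and 7. Over all tested mRNAs, 14.4% were apart in the lower direction, 1.17% were lower at those thresholds and 52.9% had a difference below 0. The B cell sums were 72.4 to 109.7 in the controls and 18.5 to 72.3 in PBLI. Of 10 neutrophil markers 1 was called higher (Mmp8, log2 difference 3.09, limma adjusted p = 0.0418), the median was 1.85, and the sums were 176 to 292 against 386 to 2274. None of the 5 pan-leukocyte genes was called (median -0.21). No marker of these 4 lists was at 0 in every library. The markers of group 2 innate lymphoid cells went the other way in their sum, with 27.0 to 31.9 in the controls and 33.0 to 50.5 in PBLI, while 4 of the 5 tested had a difference below 0 (median -0.19, none called). Rora and Areg, which other cells also express, made up most of this sum, and Il13 was listed at 0 in every library. The part of cell content in the lower NK values was not tested.

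The neutrophil and NK patterns did not follow the same library. The neutrophil sum was highest in PBLI G3 and G4, whereas the NK sum was lowest in G5, the library with the lowest pan-leukocyte sum. The NK sum was below the lowest control in G3 and G4 as well, and the pan-leukocyte sum was above the highest control in both. The T cell and B cell sums were also below their lowest control in all PBLI libraries. For the B cell sum in G4 this was only just so (72.3 against 72.4).

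**Figure D4:**
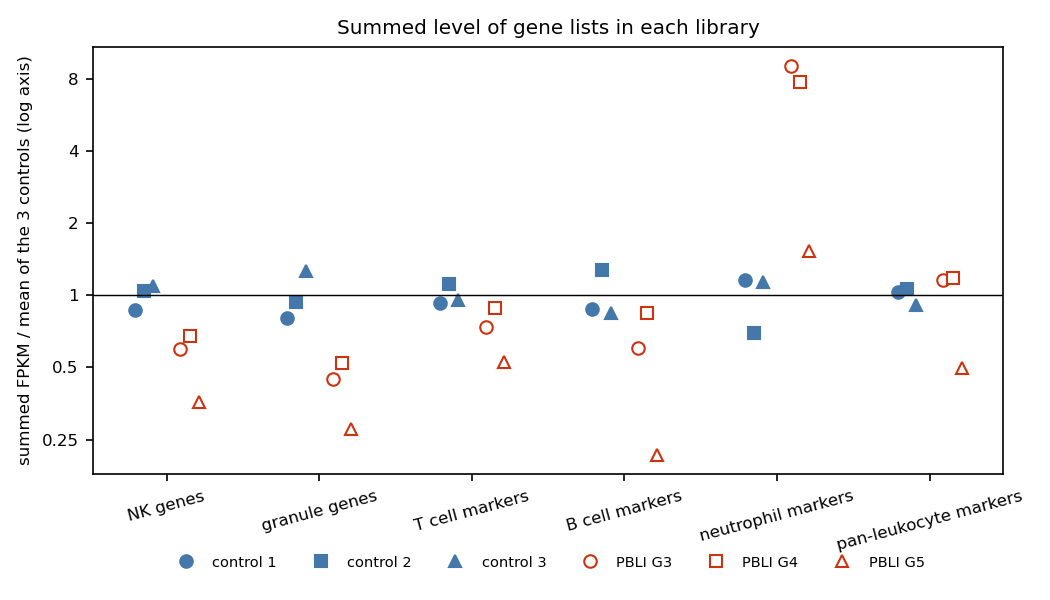
Summed FPKM of each gene list in each library, divided by the mean of the 3 controls (log axis, controls filled, PBLI open). The NK, granule, T cell and B cell sums lie below the controls in all PBLI libraries, the B cell sum of G4 only just. The pan-leukocyte sum does so in PBLI G5 only.

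Noncoding transcripts at the NK genes gave no call. The lncRNA table named 17 transcripts for members or as their neighbours, of which 4 passed 0.5 FPKM in at least 1 library, and the lowest limma adjusted p was 0.709 (background 0.0295% of 6772 tested transcripts). One of them, AK041447, lies antisense in an intron of Klrb1f and was at 0.4, 1.85 and 1.74 FPKM in the controls and at 1.28, 0.844 and 1.36 FPKM in PBLI, with mixed groups. None of the 3696 circRNAs in the junction read counts had a member as its host gene.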

How the data were processed

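Total RNA depleted of rRNA from mouse lung was sequenced in 6 libraries. The authors trimmed reads with cutadapt (1.9.3), aligned them to mm10 with hisat2 (2.0.4) and made the deposited FPKM per gene with cuffdiff (2.2.1). How cuffdiff scaled the libraries is not stated in the paper or the labels. Relative depth was the commonest ratio of FPKM between a library and control 1 among genes between 0.01 and 0.3 FPKM in both. For circRNAs the authors deposited counts of junction reads from STAR (2.5.1b) and DCC (0.4.4). Another 18 per-sample columns (count columns of mRNAs and lncRNAs, log-scaled circRNA values) were not used. The lncRNA values are deposited FPKM per transcript.

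FPKM were tested as log2(FPKM + 0.5) by limma (3.58.1 under R 4.3.3), its prior variance following mean expression, over the 14760 mRNAs that reached 0.5 FPKM in any library, with no further scaling and with Benjamini-Hochberg adjustment at 0.05. An exact permutation test of 3 against 3 cannot go below 0.1, so none was used. In simulated data for this comparison (5 sets over 14760 genes, 200 of them changed), FPKM + 0.5 was moved by a factor of 2 or 4. The fit called 93.3% of the smaller and 100% of the larger steps, with 9.4 false calls on average. Such a step is a larger fold in FPKM itself, most of all at low FPKM. The changed genes were drawn only from those above about 1 FPKM in the controls, and their spread followed mean expression alone. These rates therefore do not cover members below that level or with a wider spread. At low FPKM they may also overstate how often a 2-fold change of FPKM itself would be called. A member without a call may still have changed 2-fold. edgeR (4.0.16) was used for TMM factors only. Alternatives were the pseudocount, the filter, the scaling, the trend and leaving out each library, and, chosen after seeing the data, the sum with noncoding transcripts and leaving out 2 libraries together. Coordinates, promoters and symbols were taken from RefSeq (GRCm38.p6), and 36 of 36 members matched by symbol. Shared stretches were counted in GENCODE transcripts. Python (3.11.15), pandas (2.3.3), numpy (2.4.6) and matplotlib (3.10.9) were used.

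The members and lists were chosen with earlier results of these data known. All tested members are named. Values in each library are given for the called members, the 10 of highest mean FPKM and the main receptors and effectors, and of each other list the called genes and the 2 of highest mean may be named. The columns G3, G4 and G5 name the PBLI group but none of its sample numbers. The T cell, B cell, neutrophil, group 2 innate lymphoid, pan-leukocyte and lung markers are described with the results. Of 6 tested erythroid markers none was called (median -0.40).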

Additional observations from a re-analysis of the deposited data

How the results depend on the processing

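No member was called higher under any single alternative, and the median of the tested members stayed below 0 under every one run. The number of members called lower remained 3 with a pseudocount of 0.1 or 1, TMM or median scaling, no trend or noncoding transcripts added, and was 2 with no filter, where Ncr1 lost its call, and 2 with a mean of at least 1 FPKM, where Klra3 was not tested. Leaving out 1 library gave 0 to 4 members called lower. Over the whole table, 0 to 42 mRNAs were called lower and 5 to 69 higher without 1 control, and 3 to 188 lower (46 without G4) and 15 to 311 higher (69 without G4) without 1 PBLI library. The median of the members moved to -1.08 with a pseudocount of 0.1. Over all mRNAs the calls fell to 68 lower and 106 higher with no filter and to 59 and 70 with no trend, and the cause was not tested. Without control 1 and PBLI G5 together, Klra2 turned to 0.66 and became 1 member called higher, 4 were called lower, and 274 mRNAs were called higher. Members past the study's thresholds numbered 15 with a pseudocount of 0.1 and 3 with 1, against 7. No paired analysis was possible because the PBLI columns carry no replicate number. The edgeR and DESeq2 tests were not run because the count columns of the mRNA table, whose values are not whole numbers, were not used. Values near 0.5 FPKM or below, such as those of Klra3 in PBLI, are limited by depth, although the PBLI libraries were deeper than the controls.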
